A study of Homo sapiens with 4 samples.

Results

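Chemokine receptors steer T cells, and the genes described here are 9 that act in that process: the receptors CCR2, CXCR3, CXCR4, CCR4, CCR7 and CCR9, the egress receptor S1PR1, the selectin ligand SELPLG and the transcription factor KLF2. They are 9 of 64252 gene identifiers in the deposited table, each matched to 1 identifier by symbol. The list was chosen by function but with measured values in view, namely the low CCR2 and the high CXCR3 of shELOVL5 cells, so the differences of its members between these groups are given as a description, with no p-value for them, and support nothing. RNA sequencing counted their transcripts in J.gamma1, a mutant clone of the Jurkat T-cell acute lymphoblastic leukemia line that lacks the signalling enzyme phospholipase C gamma 1. The shELOVL5 group (2 libraries) carried a short hairpin RNA against ELOVL5, a fatty acid elongase, and the shNC group (2 libraries) carried a control hairpin. Both groups share the mutant line, which is 1 clone. The hairpin sequences are not used here, and the labels do not say whether the replicates were separate cultures.

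A chemokine receptor is a G protein-coupled receptor in the cell membrane that binds small secreted proteins, the chemokines, and turns the cell towards their source. Selectin ligands let a flowing T cell roll on the vessel wall, chemokine signals then activate its integrins, and sphingosine 1-phosphate receptors later guide it out of the lymphoid organ. In mice, KLF2 keeps resting T cells in circulation by driving S1PR1. Each of the 6 receptors has its own chemokines: CCL2 and its relatives for CCR2, CXCL9 to CXCL11 for CXCR3, CXCL12 for CXCR4, CCL17 and CCL22 for CCR4, CCL19 and CCL21 for CCR7, and CCL25 for CCR9.

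Library depth was 17338719 and 16311139 counts in shELOVL5 and 17246603 and 16254002 counts in shNC, so that 3 counts, taken as what a count of 0 allows, equal 0.172 to 0.187 CPM. CPM, the counts of a gene relative to library size, are scaled here between libraries by TMM, a trimmed mean of gene ratios, and the allowance covers counting error only. ELOVL5 itself had 71.8 and 70.0 CPM in shELOVL5 libraries, against 342 and 353 CPM in shNC libraries. The labelled cell type was checked on 12 T cell markers, all of them detected and tested, of which 3 rose and 5 fell. By edgeR at an adjusted p under 0.05, 66.7% of these markers passed, beside 20.4% of all tested genes. The summed level of the 12 markers was 2179 to 2198 CPM in shELOVL5 and 2156 to 2187 CPM in shNC. CD3E, a subunit gene of the T cell receptor complex, rose to 502 ± 19.8 CPM in shELOVL5, against 402 ± 2.84 CPM in shNC (SD, n = 2 each, as for every mean here), and CD3G and LAT also rose. LCK, the gene of a kinase that acts on that complex, fell to 471 ± 4.31 CPM in shELOVL5, against 531 ± 0.938 CPM in shNC. PTPRC, the gene of the phosphatase CD45, fell to 274 ± 3.48 CPM in shELOVL5, against 314 ± 1.04 CPM in shNC. CD3D and CD247 of the T cell receptor complex and ZAP70 fell as well. LCK did not pass without shELOVL5 replicate 2 (log2 fold change -0.17), nor PTPRC without shELOVL5 replicate 1 (-0.19). CD44, a hyaluronan receptor of many T cells, had 0 and 3 counts in shELOVL5 and 4 and 3 in shNC.

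The largest differences among the 9 genes lay in 3 chemokine receptors, and they did not all go in the same direction. CCR2 (ENSG00000121807, GRCh38 chromosome 3, 46353734 to 46360928), a receptor best known on monocytes and on activated or memory T cells, had 62 and 71 counts in shELOVL5 libraries, against 327 and 353 in shNC libraries. That is 3.55 and 4.30 CPM in shELOVL5 and 19.3 and 22.0 CPM in shNC. Both shELOVL5 libraries lay far below both shNC libraries, and the fitted log2 fold change was -2.39 (SE 0.20), or 5.25-fold lower. It stayed between -2.54 and -2.27 when any 1 library was left out.

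CCR4 (ENSG00000183813, chromosome 3, 32951574 to 32956349), a receptor of skin-homing, regulatory and type 2 helper T cells, went the same way. It had 100 and 127 counts in shELOVL5 and 255 and 240 in shNC. On the scaled level this was 5.72 and 7.69 CPM in shELOVL5, against 15.0 and 15.0 CPM in shNC. The groups did not overlap, and CCR4 was 2.24-fold lower (log2 fold change -1.16, SE 0.21; -1.39 to -0.97 with any 1 library left out).

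CXCR3 (ENSG00000186810, chromosome X, 71615916 to 71618517), a receptor of type 1 helper and cytotoxic T cells, was the member with the largest difference upwards. Its libraries held 157 and 154 counts in shELOVL5 and 62 and 20 in shNC, which is 8.98 and 9.32 CPM against 3.65 and 1.25 CPM. The shELOVL5 libraries were alike and above both shNC libraries, but the shNC libraries differed widely from each other. The log2 fold change was 1.89 (SE 0.43), or 3.71-fold higher, and it was 2.87 without shNC replicate 1 and 1.32 without shNC replicate 2.

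**Figure D1:**
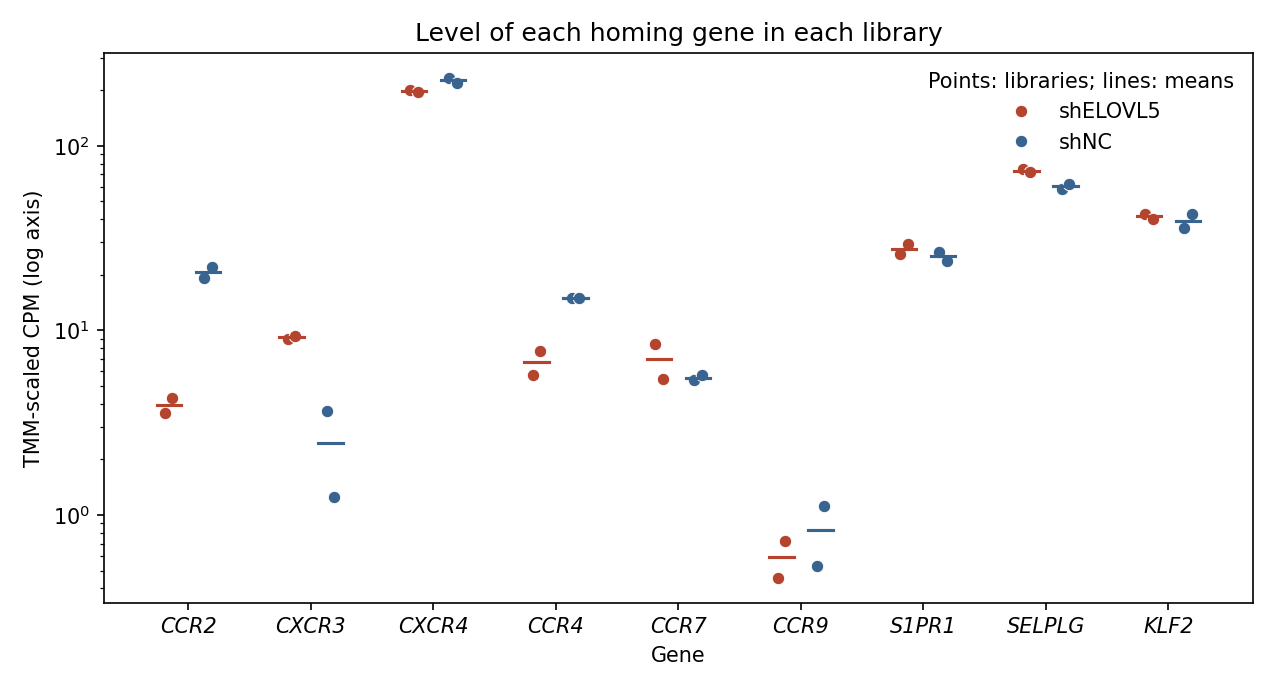
TMM-scaled CPM (log axis) of each homing gene in each library, with shELOVL5 in red and shNC in blue; points are libraries and lines are group means (n = 2). CCR2 and CCR4 sit lower in shELOVL5, CXCR3 sits higher with shNC libraries at 3.65 and 1.25 CPM, and most other genes lie close together.

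Promoter sequences are shown for the 3 members with the largest differences, CCR2, CCR4 and CXCR3, because KLF proteins bind CACCC boxes and the list pairs these receptors with KLF2. The windows run from 250 bases before to 50 bases after the RefSeq start, on build GRCh38.p14, 5′ to 3′ on the gene's strand, with CACCC or its reverse complement GGGTG in capitals. They lie at chr3:46353861-46354160 (plus strand, CCR2), chr3:32951394-32951693 (plus strand, CCR4) and chrX:71618462-71618761 (minus strand, CXCR3).
CCR2: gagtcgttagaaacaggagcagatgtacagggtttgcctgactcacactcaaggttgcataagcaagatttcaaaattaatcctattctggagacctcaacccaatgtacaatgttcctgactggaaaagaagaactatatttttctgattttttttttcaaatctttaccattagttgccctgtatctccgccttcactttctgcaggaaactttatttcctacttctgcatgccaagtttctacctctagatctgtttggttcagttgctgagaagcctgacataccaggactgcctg
CCR4: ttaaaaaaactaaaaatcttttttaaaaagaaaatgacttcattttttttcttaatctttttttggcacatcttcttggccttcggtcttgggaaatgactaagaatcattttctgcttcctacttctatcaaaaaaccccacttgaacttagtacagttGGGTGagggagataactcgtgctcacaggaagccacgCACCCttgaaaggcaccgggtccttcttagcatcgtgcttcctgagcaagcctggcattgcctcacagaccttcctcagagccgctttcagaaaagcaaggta
CXCR3: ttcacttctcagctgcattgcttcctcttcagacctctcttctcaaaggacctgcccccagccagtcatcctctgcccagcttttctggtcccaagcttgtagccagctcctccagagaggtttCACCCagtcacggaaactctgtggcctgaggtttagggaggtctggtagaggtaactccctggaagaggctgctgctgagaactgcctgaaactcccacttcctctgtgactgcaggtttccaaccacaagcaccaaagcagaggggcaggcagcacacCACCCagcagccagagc

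No CACCC or GGGTG stands in the CCR2 window, while the CCR4 window holds 1 of each and the CXCR3 window 2 of CACCC. The CCR2 window begins past the gene start given above (46353734), so it lies inside the annotated gene. The CCR4 and CXCR3 windows span the annotated starts of their genes, so the windows differ in position. Of 35116 RefSeq promoter windows of this length, 59.9% hold the motif on at least 1 strand, so its presence is the common state. The GC content was 40.7% for CCR2, 41.7% for CCR4 and 56.3% for CXCR3, against a median of 58.7% over all windows. Windows were given for 7 of the 9 members, and 5 of these 7 genes held the motif in at least 1 window. Some members had more than 1 window, and counted by window, as the 59.9% is, 8 of 10 held it.

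CXCR4 (ENSG00000121966, chromosome 2, 136114349 to 136118165), a receptor that holds leukemia cells in CXCL12-rich marrow, had the highest level of the 9 genes, also per length. It had 3506 and 3241 counts in shELOVL5 and 3955 and 3516 in shNC, or 201 and 196 CPM against 233 and 219 CPM. The groups did not overlap, yet the difference was small, 1.14-fold lower (log2 fold change -0.19, SE 0.05).

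The remaining receptors gave overlapping libraries. CCR7 (ENSG00000126353, chromosome 17, 40553769 to 40565472), which brings T cells into lymph nodes, had 8.47 and 5.45 CPM in shELOVL5 and 5.36 and 5.73 CPM in shNC. Its log2 fold change of 0.33 (SE 0.27) rested on shELOVL5 replicate 1, without which it was -0.03. CCR9 (ENSG00000173585, chromosome 3, 45886504 to 45903177), a receptor of thymocytes and gut-homing T cells, was close to the lower limit, with 8 and 12 counts in shELOVL5 and 9 and 18 in shNC (log2 fold change -0.47, SE 0.68).

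S1PR1 (ENSG00000170989, chromosome 1, 101236865 to 101243713), the receptor that leads T cells out of lymphoid organs, had 25.8 and 29.3 CPM in shELOVL5 and 26.5 and 23.7 CPM in shNC. KLF2 (ENSG00000127528, chromosome 19, 16324817 to 16327874), its known activator, had 42.9 and 40.0 CPM in shELOVL5 and 36.0 and 42.4 CPM in shNC. Libraries of the groups overlapped for both genes, with log2 fold changes of 0.13 (SE 0.12) for S1PR1 and 0.08 (SE 0.11) for KLF2. SELPLG (ENSG00000110876, chromosome 12, 108622277 to 108633959), which encodes the selectin ligand PSGL-1, had 1300 and 1185 counts in shELOVL5 and 987 and 999 in shNC. Its levels of 74.4 and 71.7 CPM in shELOVL5 lay above the 58.1 and 62.3 CPM of shNC, a 1.21-fold difference (log2 fold change 0.28, SE 0.08).

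All 9 members passed the filter on low counts, and their median log2 fold change was 0.08. The edgeR quasi-likelihood fit over all 17461 tested genes, at an adjusted p of 0.05, called 5 of them. It called 2 higher (CXCR3 and SELPLG), where 9.22% of all tested genes were called higher, and 3 lower (CCR2, CCR4 and CXCR4), where 11.2% were. In either direction 20.4% of all tested genes were called. The groups' libraries did not overlap for the same 5 genes, and did not for 60.1% of tested genes. Because the list was drawn up with this contrast in view, these counts are no test of the members and nothing is read from them. With 1 library left out, the lone library of its group is assumed to vary like the other group, whose libraries alone give the spread. The count was then 0 higher and 2 lower without shELOVL5 replicate 1 or shELOVL5 replicate 2, 1 higher and 2 lower without shNC replicate 1, and 2 higher and 3 lower without shNC replicate 2. It was 0 higher and 2 lower with no low-count filter. In the fits that leave out 1 library, the log2 fold change ran from 1.32 to 2.87 for CXCR3, from -0.24 to -0.15 for CXCR4 and from 0.23 to 0.32 for SELPLG.

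**Figure D2:**
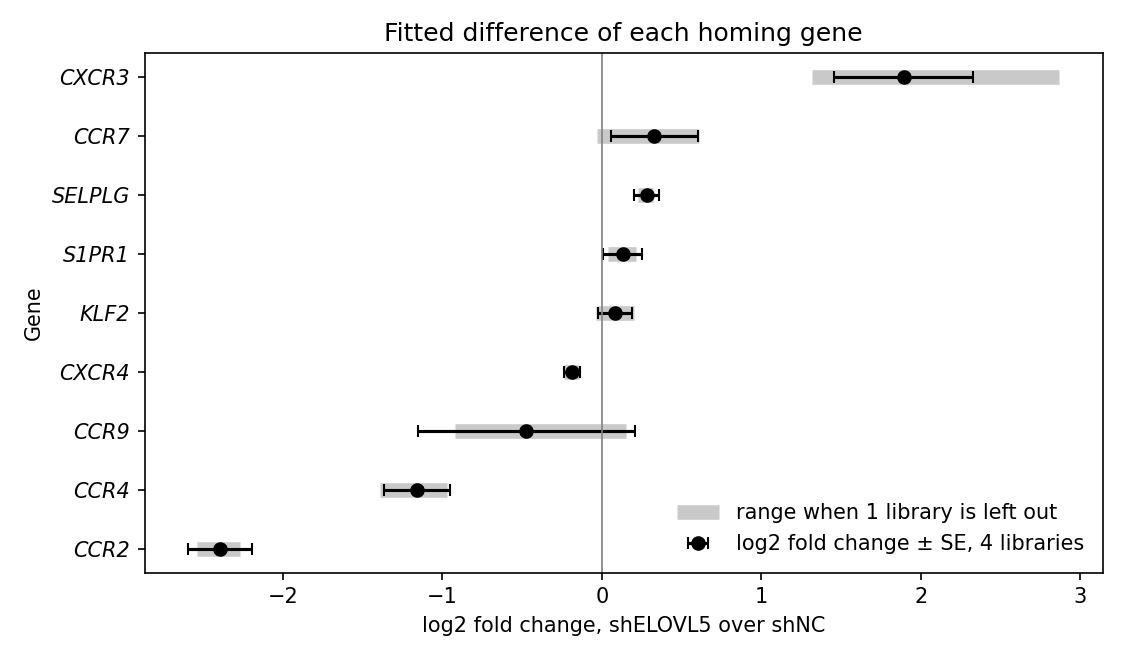
Fitted log2 fold change of shELOVL5 over shNC (horizontal axis) for each homing gene, with its SE from 4 libraries (black) and the range over the fits that leave out 1 library (grey). CCR2 and CCR4 stay below 0 and CXCR3 above 0 over that range, while CCR7, CCR9 and KLF2 reach across 0.

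Sequence shared with other genes was checked in the annotation. Of the 50-base stretches in CCR4 transcripts, 3.74% also occurred in transcripts of other genes. CXCR3, CXCR4, CCR7, CCR9, S1PR1, SELPLG and KLF2 shared none. LZTFL1 spans CCR9 on the opposite strand without sharing exon bases, and had 734 and 743 counts in shELOVL5 and 694 and 669 in shNC.

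Levels of different genes were compared as CPM per kilobase of exons. In shELOVL5 the order was CXCR4 (89.2 ± 1.42), SELPLG (29.3 ± 0.758), KLF2 (20.5 ± 1.02), S1PR1 (5.27 ± 0.472), CXCR3 (4.90 ± 0.127), CCR7 (2.77 ± 0.852), CCR4 (2.17 ± 0.449), CCR2 (1.05 ± 0.142) and CCR9 (0.211 ± 0.0676 CPM per kilobase, SD, n = 2). Within that order the libraries of S1PR1 overlapped those of CXCR3, and those of CCR7 overlapped those of CCR4. In shNC the same 3 genes led, CXCR4 (102 ± 4.36), SELPLG (24.1 ± 1.18) and KLF2 (19.4 ± 2.27), followed by CCR2 (5.52 ± 0.520), CCR4 (4.84 ± 0.0128), S1PR1 (4.81 ± 0.380), CCR7 (2.21 ± 0.106), CXCR3 (1.31 ± 0.910) and CCR9 (0.294 ± 0.149 CPM per kilobase). There only CCR4 and S1PR1 overlapped as neighbours. CXCR3 thus held rank 5 of the 9 genes in shELOVL5 and rank 8 in shNC, while CCR2 held rank 8 in shELOVL5 and rank 4 in shNC. With the length of the longest transcript, S1PR1 came to 9.47 CPM per kilobase in shELOVL5 and 8.64 in shNC, where it then stood above CCR2 (7.72 CPM per kilobase).

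**Figure D3:**
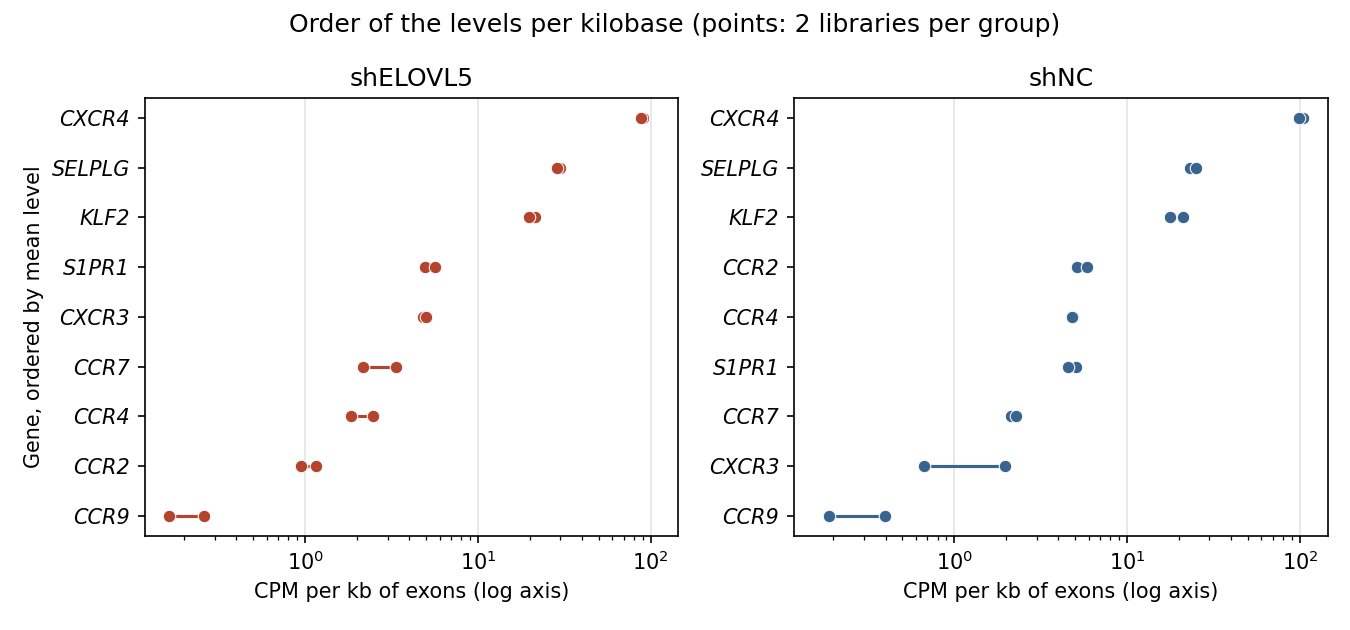
CPM per kilobase of exons (log axis) for the homing genes, ordered by group mean, in shELOVL5 (left) and shNC (right); joined points are the 2 libraries of a group. CXCR4 leads at 89.2 in shELOVL5 and 102 in shNC, CCR2 holds rank 8 in shELOVL5 and rank 4 in shNC, and CXCR3 rank 5 and rank 8.

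The genes whose centred log2 CPM over the 4 libraries lay nearest to those of CCR2, among 11539 genes with a symbol and at least 5 CPM, were SLC7A11, which encodes the cystine transporter (distance 0.139), SERBP1, which encodes an mRNA-binding protein (0.185), and ELOVL5 itself (0.250). SERBP1 had 102 ± 5.96 CPM in shELOVL5 and 499 ± 0.807 CPM in shNC. For CXCR3 they were the ATP-gated channel gene P2RX1 (0.334), the adrenergic receptor gene ADRB1 (0.652) and TIMP1, which encodes a metalloproteinase inhibitor (0.691). P2RX1, like CXCR3, had a wide spread between shNC libraries, with 18.1 ± 0.906 CPM in shELOVL5 and 3.89 ± 2.50 CPM in shNC. These distances rest on 4 libraries, 2 per group, so they mostly follow the size of the group difference. CCR2 and CXCR3 were chosen with that difference in view. SLC7A11, SERBP1 and ELOVL5 had log2 fold changes of -2.35, -2.29 and -2.29, beside -2.39 for CCR2. Likeness is thus a description, and shared control was not tested.

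Markers of other cell types were summed beside these receptors, and several were detected. Of 12 myeloid markers, given because CCR2 marks monocytes, LYZ, CSF1R, FCGR3A and S100A8 were at 0 in every library, and the summed level was 3.49 and 3.63 CPM in shELOVL5 and 1.77 and 3.74 CPM in shNC. Of 7 natural killer cell markers, given because these cells also use CXCR3, NCR1 was at 0 in every library, and the sum was 12.8 and 16.5 CPM in shELOVL5 and 10.4 and 7.17 CPM in shNC. NKG7, a cytotoxic granule gene that cytotoxic T cells also express, was the largest share of that sum in shELOVL5 and rose, to 10.3 ± 2.24 CPM in shELOVL5, against 3.75 ± 0.363 CPM in shNC (adjusted p = 0.00265). NCAM1, the gene of CD56, had 2.10 ± 0.374 CPM in shELOVL5 and 4.36 ± 1.58 CPM in shNC. Summed B cell markers were at 41.9 and 39.3 CPM in shELOVL5 and 62.4 and 55.0 CPM in shNC, mostly CD79A, a B cell receptor subunit gene. CD79A fell to 25.7 ± 1.27 CPM in shELOVL5, against 40.4 ± 4.46 CPM in shNC (log2 fold change -0.65, adjusted p = 0.00267). Erythroid markers summed to 8.64 and 11.3 CPM in shELOVL5 and 12.2 and 11.5 CPM in shNC, nearly all EPOR, and epithelial or fibroblast markers to 13.2 and 13.9 CPM in shELOVL5 and 13.1 and 12.6 CPM in shNC. The part of these markers in the results was not tested, and in bulk RNA fewer cells that express a gene cannot be told apart from less RNA per cell.

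The other genes of the homing pathways were counted in 9 lists of 211 genes, of which 146 were tested. Of these 25 rose and 23 fell (32.9% called, beside the 20.4% of all tested genes). Their median log2 fold change was 0.04, beside 0.0062 over all tested genes. The listed genes were not matched to all tested genes in expression level, so these shares are a description and no excess is read from them. The median log2 fold change was 0.07 for the other chemokine receptors, -0.24 for the ligands, 0.19 for RGS genes, 0.05 for the sphingosine 1-phosphate pathway, 0.05 for PSGL-1 ligand making and selectins, 0.06 for integrins, 0.03 for the KLF list and -0.03 for the transcription factors.

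The chemokines that the 6 receptors bind were nearly silent in these cells. Of the 13 cognate ligand genes, 9 had no count in any library, none reached more than 4 counts in a library, and none was tested. Over all 44 ligand genes 31 had no count, and the 4 that were tested did not pass by edgeR (0 at an unadjusted p under 0.05, and 0 by DESeq2 or limma-voom). CXCL16, the transmembrane ligand of CXCR6, had 1.74 ± 0.110 CPM in shELOVL5 and 2.36 ± 0.162 CPM in shNC, and MIF, a cytokine that also binds CXCR4, had 235 ± 95.8 CPM in shELOVL5 and 241 ± 119 CPM in shNC.

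Among 17 other chemokine receptors, 10 were tested and 0 passed by edgeR. ACKR2, a scavenging receptor gene, was the 1 gene at an unadjusted p under 0.05, and 0 passed by DESeq2 or limma-voom. CXCR5, the receptor of follicular T cells, had the highest CPM among them, 6.74 ± 0.225 CPM in shELOVL5 and 4.77 ± 0.834 CPM in shNC (adjusted p = 0.204). CCR3, CCR6 and ACKR1 had no count in any library.

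Downstream of the receptors, 6 of 30 tested signalling genes rose and 9 fell (50% called, beside 20.4% of all tested genes). Their median log2 fold change was 0.01. ELMO1, whose protein pairs with DOCK2 to activate Rac in migrating lymphocytes, had the largest fall, to 45.4 ± 2.92 CPM in shELOVL5, against 124 ± 6.50 CPM in shNC (log2 fold change -1.45, adjusted p = 8.42e-07). GRK2, the kinase that desensitises chemokine receptors, rose to 531 ± 5.43 CPM, against 343 ± 4.90 CPM in shNC (0.63, adjusted p = 2.48e-06). GNA13, which encodes a G protein alpha subunit, fell by 0.68 on the log2 scale. Without shELOVL5 replicate 1 or 2, or with no low-count filter, 2, 3 and 3 signalling genes rose.

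RGS proteins switch off the G proteins of these receptors. Of 12 tested RGS genes, 2 rose and 0 fell by edgeR (16.7% called, beside 20.4% of all tested genes). DESeq2 and limma-voom gave the same counts, and by edgeR 1 gene was lower at an unadjusted p under 0.05. RGS3 rose to 15.2 ± 1.56 CPM in shELOVL5, against 4.37 ± 0.518 CPM in shNC (log2 fold change 1.80, SE 0.21, adjusted p = 2.30e-04). RGS14 rose by 0.44 on the log2 scale, with 86.9 ± 2.36 CPM in shELOVL5 and 64.1 ± 4.25 CPM in shNC.

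In the sphingosine 1-phosphate pathway of S1PR1, 3 of 11 tested genes fell and 1 rose (36.4% called, beside 20.4% of all tested genes). S1PR3, another receptor of the lipid, fell to 61.8 ± 1.28 CPM in shELOVL5, against 95.9 ± 7.11 CPM in shNC (log2 fold change -0.63, adjusted p = 2.24e-04). SPHK1, the kinase that makes the lipid, fell by 0.69 and SPNS2, which exports it, by 0.66 on the log2 scale. S1PR4, a receptor of lymphoid cells, rose at a low level (3.22 ± 0.538 CPM in shELOVL5 and 1.19 ± 0.604 CPM in shNC, adjusted p = 0.0394). S1PR4 did not pass by limma-voom, with robust=FALSE, with no low-count filter, or without shELOVL5 replicate 1, shELOVL5 replicate 2 or shNC replicate 1 (log2 fold changes 1.51, 1.44, 1.43, 1.25, 1.59 and 0.99). SPNS2 did not pass without shELOVL5 replicate 1 (-0.58), shELOVL5 replicate 2 (-0.75) or shNC replicate 2 (-0.49), or with no low-count filter (-0.67), nor SPHK1 without shELOVL5 replicate 1 (-0.59).

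PSGL-1 binds selectins only once its sugars are built. Of 19 tested genes for that task and for selectins and their anchors, 3 rose and 2 fell. That is 26.3% called, beside 20.4% of all tested genes. FUT4, a fucosyltransferase gene of selectin ligands, rose to 132 ± 0.122 CPM in shELOVL5, against 102 ± 5.95 CPM in shNC (adjusted p = 0.00158). RDX, which encodes the membrane-actin linker radixin, rose by 0.64 on the log2 scale, and the galactosyltransferase gene B4GALT1 fell by 0.34. SLC35C1, which encodes the Golgi GDP-fucose carrier, fell by 0.38. FUT7, the main fucosyltransferase gene of selectin ligands, had 20 and 0 counts in shELOVL5 and 16 and 10 in shNC. Neither of the 2 that fell passed without shELOVL5 replicate 1 or 2 (for B4GALT1, log2 fold changes -0.34 and -0.35), and 1 of them passed without shNC replicate 2.

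For arrest on the vessel wall, 5 of 18 tested genes of homing integrins and their activators rose and 3 fell. The share called was 44.4%, beside 20.4% of all tested genes. ITGB1, the beta 1 integrin gene, rose to 261 ± 1.98 CPM in shELOVL5, against 177 ± 5.05 CPM in shNC (log2 fold change 0.56, adjusted p = 1.78e-05). Its alpha 4 partner gene ITGA4 fell to 186 ± 5.61 CPM, against 264 ± 1.61 CPM in shNC (-0.51, adjusted p = 3.21e-05). FYB1, which encodes an adaptor between the T cell receptor and integrins, fell by 0.41 on the log2 scale, and STK4, which encodes the kinase MST1, rose by 0.27. The others were ITGAL, TLN1 and APBB1IP among those that rose and RASGRP2 among those that fell. Without shELOVL5 replicate 1, 2 of these genes rose, and 3 did without shNC replicate 1, with robust=FALSE or with no low-count filter.

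Around KLF2, 5 of 22 tested genes of the KLF family and of its control rose and 2 fell. In that list 31.8% were called, beside 20.4% of all tested genes. MAP3K3, the kinase gene at the head of the ERK5 pathway that induces KLF2 in endothelial cells, rose to 79.8 ± 1.04 CPM in shELOVL5, against 58.6 ± 0.557 CPM in shNC (adjusted p = 0.00148). MEF2A, a factor of the same pathway, fell by 0.48 on the log2 scale. KLF10 rose to 55.1 ± 9.96 CPM in shELOVL5, against 33.0 ± 0.598 CPM in shNC, and KLF6 rose by 0.46. KLF16 and MEF2D were the others that rose, FBXW7 was the other that fell, and with no low-count filter 3 genes of the list rose. FOXO1, which drives KLF2 in T cells of mice, had 11.2 ± 3.13 CPM in shELOVL5 and 15.3 ± 3.05 CPM in shNC (adjusted p = 0.213).

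Among transcription factors that set which homing receptors a T cell carries, 3 of 20 tested genes rose and 4 fell. This makes 35% called, beside 20.4% of all tested genes. EOMES, a T-box factor of cytotoxic T cells, rose to 79.1 ± 9.26 CPM in shELOVL5, against 49.1 ± 0.434 CPM in shNC (log2 fold change 0.69, adjusted p = 4.94e-04). RUNX3, a factor of the same lineage, rose by 0.80 on the log2 scale, to 42.2 ± 1.74 CPM in shELOVL5, against 24.3 ± 3.33 CPM in shNC. ETS1 fell by 0.37 and STAT5A by 1.08 on the log2 scale. ID2 also rose and RUNX1 also fell. TBX21, the T-box factor known to drive CXCR3, had 1.39 ± 0.263 CPM in shELOVL5 and 0.997 ± 0.0883 CPM in shNC (adjusted p = 0.573). GATA3, the factor of type 2 helper T cells, which carry CCR4, fell to 122 ± 13.1 CPM in shELOVL5, against 167 ± 0.195 CPM in shNC (adjusted p = 0.00147). The genes TBX21, GATA3, ID2, RUNX1, FOXO1, FUT7, SLC35C1, ACKR2, CD44, ITGAL, TLN1, APBB1IP, RASGRP2, KLF16, MEF2D, FBXW7, CD3G, LAT, CD3D, CD247 and ZAP70 were named after their values were seen. So were FYCO1, CCR1, CCRL2, CXCR6, CMTM6, GLB1, MED12, NHSL2, NONO and OGT, given further below as neighbours of CCR2, CCR4 and CXCR3.

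**Figure D4:**
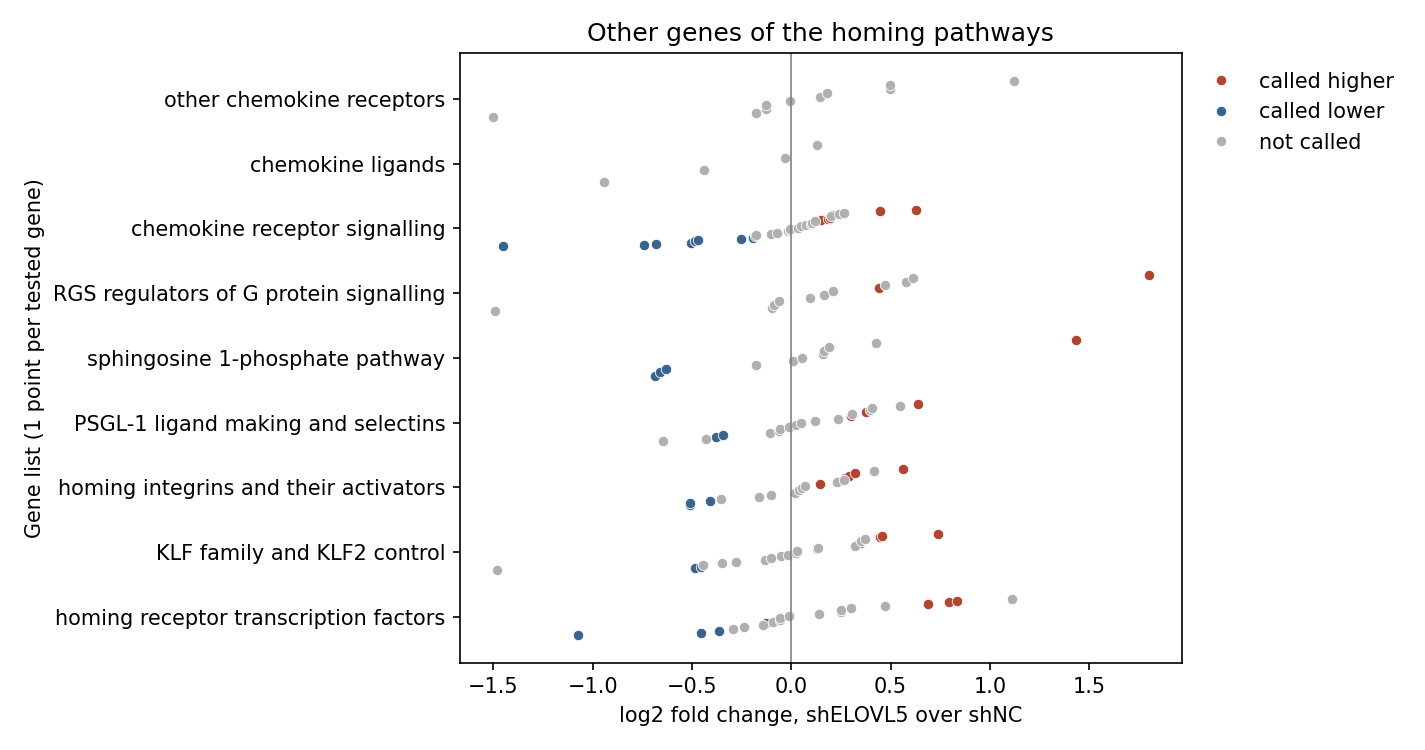
Log2 fold change of shELOVL5 over shNC (horizontal axis) for the tested genes of 9 homing pathway lists, 1 point per gene, in red where called higher, blue where called lower and grey where not called. Calls go both ways in most lists, with RGS3 the furthest to the right at 1.80, and no gene is called among the other chemokine receptors or the ligands.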

How the data were processed

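RNA was measured in 4 libraries, 2 of shELOVL5 and 2 of shNC J.gamma1 cells, grouped and numbered by their titles. The deposited values are raw counts, in whole numbers for each gene. Per the submitters' processing notes, HISAT2 2.2.0, StringTie (no version given) and build hg38 were used, with no role or order stated. Annotation, counting step and strand setting: not given in the sources used here, so counts of overlapping or antisense genes are uncertain. Symbols were found for 56105 of 64252 identifiers, and coordinates, exon lengths and transcripts came from GENCODE release 29 on GRCh38. Promoters came from RefSeq, GRCh38.p14.

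Genes were kept by filterByExpr (minimum count 10), scaled by TMM and tested in edgeR 4.0.16 under R 4.3.3 (glmQLFit with robust=TRUE, glmQLFTest, two-sided, group as the only term), with Benjamini-Hochberg adjusted p-values over 17461 genes and a threshold of 0.05. Every adjusted p is from that test. The SE is the log2 fold change divided by the root of F. The fit was tested on simulated data, with 50 changed genes at each fold. It recovered 12% of them at 1.25-fold, 38% at 1.5-fold, 72% at 2-fold and 80% at 4-fold. Of 17327 genes tested there, 26 unchanged genes were called, where only 200 genes had been changed. A gene that did not pass may thus still differ, and one that passed may be unchanged. In the real data 20.4% of tested genes were called, far more than were changed in the simulation. The simulated shares need therefore not hold for the real data. Counts of library pairs differed beyond sampling noise, with chi-square per degree of freedom of 5.19 within shELOVL5, 5.58 within shNC and 22.8 to 24.8 between groups, so the replicates were kept apart. Since separate cultures are not stated, a p-value here reflects only the spread of these libraries, and that spread may be technical. The members and all lists were chosen with earlier results of these data known. Genes named were the members, their ligands, up to 4 genes per list with the smallest p past the threshold (otherwise the 2 of highest CPM), the 3 highest markers per cell type and the 3 nearest patterns of CCR2 and of CXCR3. Alternatives were RLE size factors, total counts only, other low-count filters, DESeq2 1.42.0, limma-voom 3.58.1, robust=FALSE, a replicate block, leaving out each library and the longest transcript as gene length. Some genes that this rule names are not reported here.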

Additional observations from a re-analysis of the deposited data

How the results depend on the processing

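With no low-count filter, 899 genes were called higher, against 1610 with the filter, along with 0 of the members and 16 of the other homing pathway genes. Leaving out 1 library gave 696 to 1347 genes higher and 1176 to 1616 lower, against 1952 lower with all libraries, 0 to 2 members higher, and 15 to 24 other pathway genes higher. The length of the longest transcript gave, in CPM per kilobase for shELOVL5 and shNC, 104.691 and 119.242 for CXCR4, 32.4 and 26.7 for SELPLG, 9.47 and 8.64 for S1PR1 and 1.47 and 7.72 for CCR2, and 2.55 for CCR7 in shNC. With 1 library left out, log2 fold changes ran from -0.033 to 0.61 for CCR7, from -0.92 to 0.15 for CCR9, from -0.037 to 0.20 for KLF2, from -0.391 to 0.00057 for EPOR, from -0.268 to 0.779 for KRT18 (a keratin gene) and from -0.532 to 0.584 for MIF. Those of MIF were 0.0024 by total counts only and 0.020 by limma-voom. The cause of these differences was not tested.

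Deviations of replicate 1 from its group mean were almost uncorrelated between the groups (-0.0148 over genes), so no shared replicate effect was seen. The labels do not say whether libraries with the same number were handled together, and this value cannot tell. With a replicate block 1551 genes were called higher and 1902 lower, along with 2 members higher and 3 lower and 26 other pathway genes higher and 22 lower. CCR9 and other genes at like levels are limited by depth, since 3 counts equal up to 0.187 CPM.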

Other observations

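Genes near CCR2 on chromosome 3 were also tested. Of 8 other tested genes within 500 kilobases, 1 rose and 7 did not pass by edgeR, where 20.4% of all tested genes were called. FYCO1, which encodes an autophagy adaptor, rose to 89.7 ± 0.317 CPM in shELOVL5, against 57.4 ± 3.72 CPM in shNC (log2 fold change 0.64, adjusted p = 1.93e-04). The receptor genes CCR1, CCRL2, CXCR6 and CCR9 in the same stretch did not pass, most of them at levels near 1 CPM, with log2 fold changes of -0.47 (SE 0.68) for CCR9 and -0.13 (SE 0.37) for CCRL2. CCRL2 was at 2.96 ± 0.783 CPM in shELOVL5 and 3.23 ± 1.16 CPM in shNC. Near CCR4, 1 of 10 tested neighbours rose (CMTM6) and 1 fell (GLB1). Near CXCR3, 2 of 11 were called higher (MED12 and NHSL2) and 2 fell (NONO and OGT), with NONO, an RNA-binding protein gene, at 510 ± 12.1 CPM in shELOVL5 and 741 ± 26.0 CPM in shNC. NHSL2 had 1.17 ± 0.370 CPM in shELOVL5 and 0.182 ± 0.00731 CPM in shNC, where 3 counts equal 0.177 and 0.187 CPM. It passed the filter on low counts only through its shELOVL5 libraries, so nothing is read from its call.

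MIF counts differed widely between the libraries of each group. They were 5290 and 2763 in shELOVL5 and 2653 and 5215 in shNC, while the antisense gene MIF-AS1, which shares 687 exon bases with it, had 1009 and 3517 in shELOVL5 and 4471 and 1647 in shNC. Added together, the counts of the gene pair were 6299 and 6280 in shELOVL5 and 7124 and 6862 in shNC.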
